A study of Mus musculus with 4 samples.

Results

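The cells described here are the CD4 T cells of mouse blood, divided by whether they carried the message for the chemokine Ccl5. They were picked from raw counts of unique molecular identifiers (UMIs, 1 per captured RNA molecule) in barcodes with at least 200 genes and at most 10% mitochondrial UMIs. A cell needed 2 or more UMIs of Cd3d, Cd3e and Cd3g together and at least 1 UMI of Cd4 or Cd40lg. It could hold no UMI of Cd8a, Cd8b1, Csf1r, Ms4a6c or Csf3r, and at most 1 UMI of Cd79a, Cd79b and Ms4a1 together. The gate held 149 of 15439 kept cells: 47 in Cured 1, 53 in Cured 2, 27 in Relapsed 1 and 22 in Relapsed 2. Of these, 113 had at most 1 Ccl5 UMI (Ccl5-low) and 36 had 2 or more (Ccl5-positive).

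CD4 T cells are the helper lineage, and Cd40lg encodes the ligand through which they license B cells and dendritic cells. Naive and central memory cells travel between blood and lymph nodes by means of the chemokine receptor Ccr7, and are maintained by the transcription factors Tcf7 and Lef1 and by interleukin-7. After antigen encounter these genes are lowered and genes of tissue entry, cytokine release and, in some cells, granule contents are raised. Ccl5 itself is stored and released by memory and effector T cells and by natural killer (NK) cells.

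All 4 libraries came from C57BL/6J mice aged 10 weeks that were immunocompetent, had been inoculated with acute lymphoblastic leukaemia and received dasatinib, an inhibitor of ABL and SRC family kinases. Blood was taken 1 week into treatment, while every mouse was in remission, and dasatinib was given for 4 further weeks. The mice were named Cured (6 mice) or Relapsed (6 mice) by their state at day 100, and the study asks what set the groups apart. Frozen leukocytes were thawed, sorted for live cells and pooled from 3 mice per library for 10x Genomics 5′ sequencing. Each group therefore has 2 libraries, and no group is untreated. The p-values between Cured and Relapsed measure the spread between pools. Those of the Ccl5 comparisons, with the library as a block, measure the spread of within-pool differences. The tests of genes also lean on variance shared across genes.

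The libraries held 9257402, 10840397, 7184045 and 9859508 UMIs in Cured 1, Cured 2, Relapsed 1 and Relapsed 2. Among gated cells no barcode occurred in more than 1 library, and 6 of their barcodes were also kept in another library. Messages of other cell types were measured in both classes. Of 10 NK cell markers, 1 was detected in Ccl5-low cells, in 2 of 113 cells, and all 10 were detected in Ccl5-positive cells, in 9 of 36. The summed NK marker level ran from 0 to 95.3 CPM (UMIs per 1e6 UMIs of the summed cells) over the Ccl5-low libraries and from 427 to 2861 CPM over the Ccl5-positive ones. B cell markers were at 471 CPM in Ccl5-low and 458 CPM in Ccl5-positive cells, with the defining B cell factor Pax5 at 0 in both. The defining genes of regulatory, invariant and gamma delta T cells, Foxp3, Zbtb16, Trav11, Traj18 and Trdc, were at 0 in all 149 cells. By the floor of 3 counts this allows up to 2.01% of the gated cells with a UMI, and up to 8.33% of the Ccl5-positive cells alone. Other members of these lists were detected. Of gamma delta markers, 4 of 6 were seen in 3 of 36 Ccl5-positive cells (72.4 CPM, from 0 to 212 CPM by library). In Ccl5-low cells 1 of 6 was seen, in 1 of 113 (3.08 CPM). Of invariant and innate-like T cell markers, 1 of 7 (Klrb1c, also an NK marker) was seen in 8 of 36 Ccl5-positive cells (169 CPM). In Ccl5-low cells 1 of 7 was seen, in 1 of 113 (3.08 CPM). Of regulatory T cell markers, 2 of 4 were seen in 11 of 36 Ccl5-positive cells (193 CPM). In Ccl5-low cells 3 of 4 were seen, in 4 of 113 (27.7 CPM). The part of these markers in the results was not tested.

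The gate genes and Ccl5 chose the cells, so their values are a description with no test. A Cd4 UMI was present in 61.1% of the Ccl5-low and 61.1% of the Ccl5-positive cells, and a Cd40lg UMI in 58.4% and 55.6%. Among B cells, which lack these genes, 3 of 11336 held a UMI of either, at a median of 2150 UMIs per cell against 2677 in the gated cells. Ccl5 was at 0 in 111 cells and at 1 UMI in 2, just below the limit, while 2 cells had 2 UMIs and 1 had 3, just above it. Of the 36 positive cells 32 held 10 or more Ccl5 UMIs, with a median of 49 and a highest of 214. The division therefore ran through a sparsely filled range rather than through a continuous slope. In B cells, 0.944% held 2 or more Ccl5 UMIs.

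**Figure D1:**
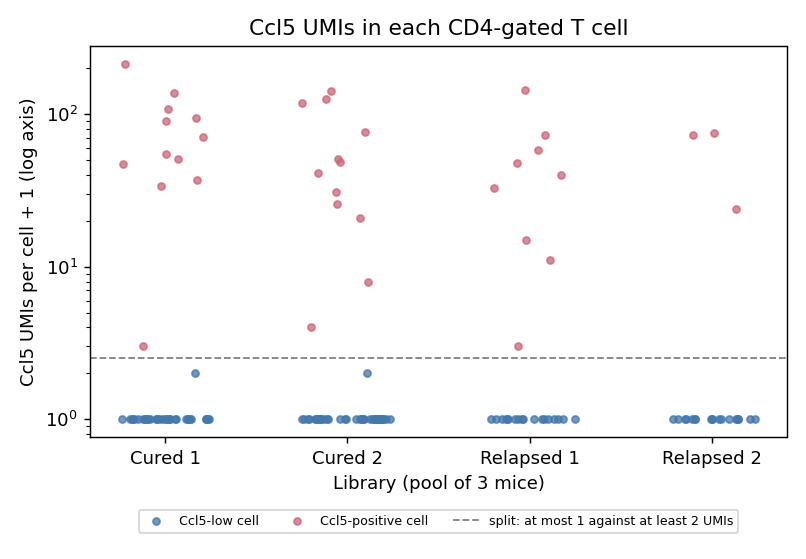
Ccl5 UMIs plus 1 per CD4 T cell on a log axis, by library, each point a cell; the dashed line lies between 1 and 2 UMIs. Of the 36 cells above the line, 32 hold 10 or more UMIs, and 111 of the 113 below it hold 0.

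The markers named for naive-like cells fitted most Ccl5-low cells. Lef1, the lymphoid enhancer-binding factor, had a UMI in 68.1% of Ccl5-low and 19.4% of Ccl5-positive cells, and Satb1, a chromatin organiser of T cells, in 54.0% and 16.7%. Of 20 naive and central memory genes, a Ccl5-low cell held a median of 9 (range 1 to 15) and a Ccl5-positive cell a median of 3 (range 1 to 12). Of 21 antigen-experienced genes the medians were 4 (range 0 to 17) and 11 (range 2 to 17). More naive than experienced genes were seen in 103 of 113 Ccl5-low cells, and more experienced than naive genes in 33 of 36 Ccl5-positive cells. The exceptions were 9 Ccl5-low cells with more experienced genes, 1 with equal numbers and 3 Ccl5-positive cells with more naive genes. The Ccl5-positive cells were shallower, with a median of 2112.5 UMIs against 2879. With each cell thinned to 1000 UMIs, which left 106 and 34 cells and dropped 7 and 2, the median number of naive genes was 5 in Ccl5-low and 2 in Ccl5-positive cells and that of experienced genes was 2 and 9.

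**Figure D2:**
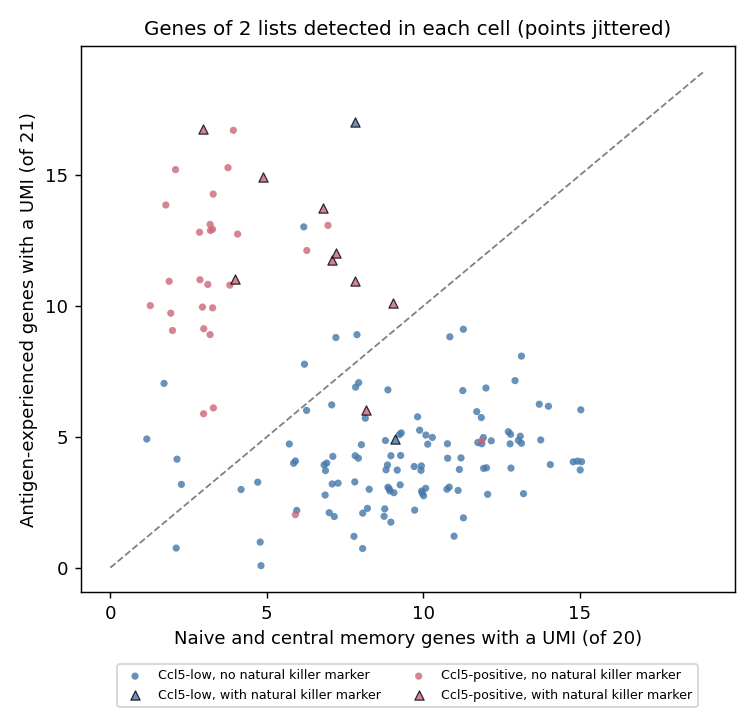
Number of naive and central memory genes with a UMI (of 20) against number of antigen-experienced genes with a UMI (of 21) in each CD4 T cell, by Ccl5 class; triangles are cells with an NK marker. Ccl5-low cells lie around medians of 9 naive and 4 experienced genes, Ccl5-positive cells around 3 and 11.

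To ask which other genes separated the classes, UMIs were summed per library and class and compared with edgeR's quasi-likelihood test, with the library as a block and Benjamini-Hochberg adjustment over all 463 genes that passed the filter on low counts. The Ccl5-positive sum of Relapsed 2 held only 3 cells and was left out of the fit, which therefore rests on Cured 1, Cured 2 and Relapsed 1. Its p-values lean on variance shared across genes, with a median of 48.6 prior degrees of freedom beside 2 residual ones. At an adjusted p under 0.05, 187 of 463 genes (40.4%) were called, 101 higher (21.8%) and 86 lower (18.6%) in Ccl5-positive cells. The 3 positive sums lay wholly above or below the 4 low sums for 161 of the called genes and for 209 of all 463 (45.1%). The median log2 difference of all tested genes was 0.22, and the differences below are read against it. Without Cured 2 only 4 genes passed (Nkg7, Ly6c2, Gzma and AW112010), and without Cured 1, 82 passed. None of the called genes that were still tested changed sign when any 1 library was left out.

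Genes of naive and central memory cells were in part lower in Ccl5-positive cells. Of the 20 on the list 9 passed the filter, and of those 5 fell (Tcf7, Ccr7, Lef1, Igfbp4 and Satb1), none rose, and the median log2 difference was -1.31. Tcf7, Ccr7, Lef1 and Igfbp4 passed the filter only through the Ccl5-low class, in which they were high. The count of 5 is therefore a description and no support for the list. Over the whole list, 16 of 20 had a lower pooled CPM in Ccl5-positive cells, while 62.9% of features with 10 or more UMIs had a higher one. With cells thinned to 1000 UMIs none of these 5 passed the filter. Of the 3 listed genes that then did, Klf2 rose (1.08, edgeR adjusted p = 0.0374) and none fell. Tcf7, a transcription factor of naive and self-renewing T cells encoded at chr11:52252371-52283014 (mm10, minus strand), was at 431, 470.5, 496 and 471 CPM in the Ccl5-low sums of Cured 1, Cured 2, Relapsed 1 and Relapsed 2, and at 32.6, 0, 106 and 132 CPM in the Ccl5-positive sums, the last of these from 3 cells. All Ccl5-low sums lay above all Ccl5-positive ones, a log2 difference of -3.55 (SE 0.62, edgeR's quasi-likelihood test, adjusted p = 1.69e-05). In cells, 76 of 113 against 3 of 36 held a Tcf7 UMI.

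Ccr7, the receptor for lymph node chemokines, was at 603, 622, 248 and 655 CPM in the Ccl5-low sums and at 0, 77.7, 159 and 0 CPM in the Ccl5-positive sums, in the same order. The classes did not overlap, although Relapsed 1 held both the lowest Ccl5-low and the highest Ccl5-positive value (log2 difference -2.98, SE 0.58, edgeR adjusted p = 0.000181). Lef1 read 546, 470.5, 438 and 532 CPM against 97.8, 38.9, 212 and 0 CPM, again without overlap (-2.28, SE 0.48, edgeR adjusted p = 0.000227). Igfbp4, an insulin-like growth factor binding protein, was at 1082, 765, 419 and 594 CPM in the Ccl5-low sums and at 0, 233, 0 and 0 CPM in the Ccl5-positive sums. In the positive class it was seen in Cured 2 alone, below every Ccl5-low sum (-3.37, SE 0.64, edgeR adjusted p = 0.00156).

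Satb1 was the weakest of the 5. It was at 239, 286, 553 and 553 CPM in the Ccl5-low sums and at 97.8, 0, 424 and 0 CPM in the Ccl5-positive sums, so that the Ccl5-positive value of Relapsed 1 lay above the Ccl5-low values of both Cured libraries. Its log2 difference of -1.31 (SE 0.48) had an edgeR adjusted p of 0.0276, which became 0.139 in DESeq2, 0.108 without Cured 1 and 0.289 without Cured 2. Nsg2 and Dapl1, both on the list, fell short of the filter and were at 0 UMIs in the Ccl5-positive cells against 40 and 30 of 113 Ccl5-low cells, pooled levels at least 5.36-fold and 4.51-fold lower against a floor of 3 UMIs over the class.

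Not every survival and trafficking gene moved with this group. Il7r, the interleukin-7 receptor chain, was at 776, 739, 553 and 635 CPM in Ccl5-low sums and at 424, 311, 1219 and 132 CPM in Ccl5-positive sums. Relapsed 1 alone had the higher value in the positive class, and the log2 difference of -0.35 (SE 0.38) did not pass (edgeR adjusted p = 0.459). With NK-marked cells left out it was -1.58 with an adjusted p of 0.000579. Klf2, which drives the exit receptors of T cells, differed by 0.51 (SE 0.30, edgeR adjusted p = 0.177). A UMI of S1pr1, the receptor for leaving lymph nodes, was seen in 24.8% and 16.7% of cells. Outside the list, Selenop, a secreted selenoprotein, fell by 2.20 on the log2 scale (SE 0.50, edgeR adjusted p = 0.000479).

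Genes of antigen-experienced cells were higher in the Ccl5-positive class. All 21 listed genes had a higher pooled CPM there, beside 62.9% of the 3925 features with 10 or more UMIs in the gated cells and 64.1% with ribosomal protein genes left out. Of the 21, 12 passed the filter on low counts and 11 of them rose. S100a4, Ly6c2 and Id2 had 4, 3 and 21 UMIs in the whole Ccl5-low class. Such members passed the filter only through the class in which they were high. The count of 11 is therefore a description and no support for the list. S100a4, a calcium-binding protein of memory cells, was at 0, 16.8, 38.1 and 0 CPM in the Ccl5-low sums of Cured 1, Cured 2, Relapsed 1 and Relapsed 2 and at 619, 2759, 1007 and 527 CPM in the Ccl5-positive sums. Every Ccl5-positive sum lay far above every Ccl5-low one, with Cured 2 highest (6.50, SE 0.44, edgeR adjusted p = 9.5e-17, and 0.0656 without Cured 2). Ly6c2, a surface protein of memory and effector T cells with the close paralog Ly6c1, was at 9.58, 8.40, 0 and 20.5 CPM against 1206, 311, 1484 and 1581 CPM. The low class held 3 Ly6c2 UMIs in all, giving a pooled ratio of 111 with a 95% counting interval of 36.7 to 549 (edgeR adjusted p = 2.73e-14). In the positive class its UMIs came from 12 of 36 cells. Counting intervals, here and below, cover counting error only and not the spread between cells or libraries.

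Id2, a regulator that opposes E proteins in effector lymphocytes, read 47.9, 50.4, 172 and 20.5 CPM in the Ccl5-low sums and 880, 855, 583 and 0 CPM in the Ccl5-positive sums. It was high in all 3 tested libraries and was not seen in the 3 cells of Relapsed 2 (3.29, SE 0.40, edgeR adjusted p = 1.99e-08). Lgals1, a secreted galectin, was at 125, 134, 438 and 41.0 CPM against 2346, 2526, 1325 and 395 CPM (3.30, SE 0.46, edgeR adjusted p = 0.000281). Its highest Ccl5-low sum, Relapsed 1, exceeded the 3-cell sum of Relapsed 2 but none of the tested positive sums. The calcium-binding S100a10 (2.21) and S100a11 (2.49), the scaffold Ahnak (3.47), the filament protein Vim (1.30) and the adhesion receptor Cd2 (0.89) also rose.

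S100a6 was the member that did not pass. It was at 0, 50.4, 686 and 0 CPM in the Ccl5-low sums and at 2770, 3109, 477 and 2898 CPM in the Ccl5-positive ones, so that Relapsed 1 alone had the higher value in the low class (log2 difference 3.80, SE 2.23, edgeR adjusted p = 0.332). A single cell of Relapsed 1 gave 34 of the S100a6 UMIs of that sum. It was the deepest of the Ccl5-low cells with 5863 UMIs, and it held 0 Ccl5, 0 Cd4 and 1 Cd40lg UMI, 22 Lgals1 UMIs, 5 UMIs of the NK marker Fcer1g and 17 of the 21 experienced genes. It is the NK-marked Ccl5-low cell of that library, so the results without NK-marked cells also leave it out. Without this cell, singled out because it held the most S100a6 UMIs of the Ccl5-low cells of Relapsed 1, the S100a6 difference was 6.08. The cell was chosen after its values were seen and by the value compared, so this difference is a description and no test of S100a6.

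Granule and killer genes were higher in the Ccl5-positive class. All 20 cytotoxic effector genes had a higher pooled CPM there, as did 62.9% of features with 10 or more UMIs. Nkg7, Gzma and Srgn passed the filter and rose, but Nkg7 and Gzma had only 9 and 6 UMIs in the whole Ccl5-low class, so they passed the filter through the class in which they were high and their number is no support for the group. Nkg7, a granule membrane protein needed for release of killing granules and encoded at chr7:43437073-43438249 (mm10, plus strand), was at 38.3, 16.8, 57.2 and 0 CPM in the Ccl5-low sums of Cured 1, Cured 2, Relapsed 1 and Relapsed 2 and at 2216, 3808, 2172 and 1976 CPM in the Ccl5-positive sums. No other gene separated the classes at a smaller p (6.21, SE 0.37, edgeR adjusted p = 2.63e-18). It had a UMI in 34 of 36 Ccl5-positive cells (94.4%, exact 95% interval 81.3 to 99.3) and in 4 of 113 Ccl5-low cells (3.54%, 0.973 to 8.82), beside 1.09% of B cells. Both intervals cover counting error only, not the spread between libraries.

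Gzma, the granzyme A gene, also passed (5.54, SE 0.48, edgeR adjusted p = 9.15e-14), from 9.58, 25.2, 19.1 and 20.5 CPM to 750, 622, 2278 and 0 CPM. Its message sat in 4 of 36 cells, with 81 of its 82 UMIs in cells that also held an NK marker, and with those cells left out it did not pass the filter on low counts. Gzmk, granzyme K, was spread more widely, with a UMI in 15 of 36 Ccl5-positive cells, 2 of 113 Ccl5-low cells and 0.0265% of B cells. Gzmb had a UMI in 7 of 36 cells and none in the low class, a pooled level at least 13.1-fold higher. It was seen in 4 of 9 Ccl5-positive cells with an NK marker and in 3 of 27 without. Srgn, the proteoglycan that packs granules, rose by a log2 difference of 1.44 (SE 0.30, edgeR adjusted p = 0.000212).

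**Figure D3:**
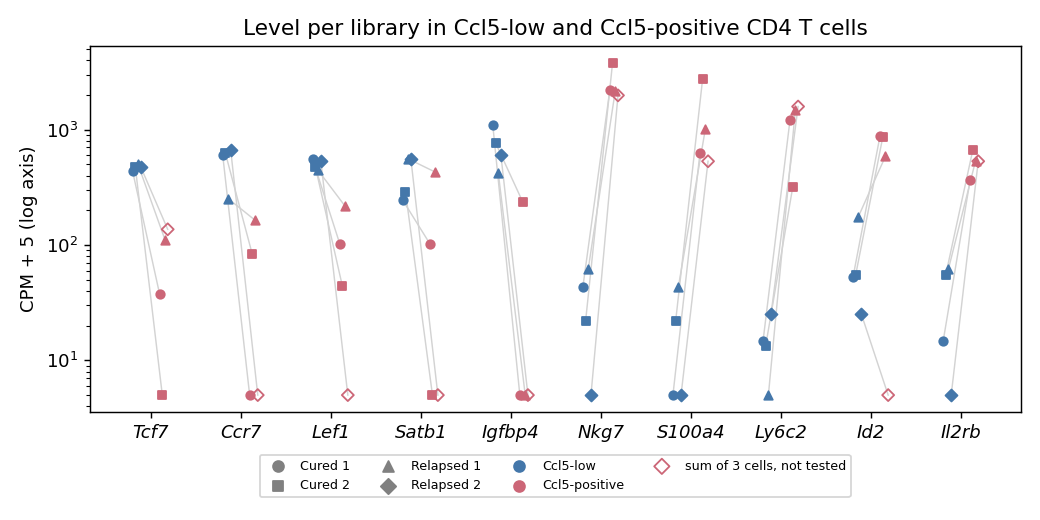
CPM plus 5 on a log axis for 10 genes in Ccl5-low and Ccl5-positive CD4 T cells, each point the sum of a library and lines joining the classes of a library; the open diamond is the sum of 3 cells that was not tested. Tcf7, Ccr7, Lef1 and Igfbp4 are lower and Nkg7, S100a4, Ly6c2, Id2 and Il2rb higher in every tested library, while Satb1 overlaps between classes.

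Type 1 helper genes were too sparse to be tested, with 0 of 14 passing the filter, and are given as cells with a UMI. Pooled CPM was higher in Ccl5-positive cells for 12 of the 14, lower for 1 and at 0 for 1, beside 53.7% higher among all 10131 features with a UMI. Cxcr6, a receptor of tissue-homing T cells, had a UMI in 16 of 36 Ccl5-positive cells, 5, 7, 2 and 2 by library, and in 0 of 113 Ccl5-low cells, which allows up to 2.65% of cells by the floor of 3 counts. The pooled level was at least 32.6-fold higher. Cxcr3, a receptor for interferon-induced chemokines, was seen in 13 against 2 cells (pooled ratio 37.9, counting interval 11.7 to 194). Tbx21, the type 1 master regulator, was seen in 3 against 0 cells, and Ifng in 5 against 0. Ifng was seen in 3 of 9 Ccl5-positive cells with an NK marker and in 2 of 27 without. After thinning to 1000 UMIs the Cxcr6 share was 29.4% against 0%, and B cells had Cxcr6 in 0.0441% of cells.

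Of the regulatory list 1 of 14 genes passed the filter. That gene, Il2rb, the shared receptor chain for interleukin-2 and interleukin-15, rose from 9.58, 50.4, 57.2 and 0 CPM to 358, 661, 530 and 527 CPM (3.70, SE 0.39, edgeR adjusted p = 4.88e-11). Its classes did not overlap, but it passed the filter only through the Ccl5-positive class, in which it was high. This 1 gene is therefore no support for the list, and Il2rb is also carried by memory T and NK cells. Of the regulatory T cell genes proper, Foxp3 was at 0 and Il2ra was seen in 1 Ccl5-low and 0 Ccl5-positive cells, while Ikzf2 was seen in 2 and 7 and Ctla4 in 4 and 6. Tnfrsf4, the costimulatory receptor OX40, was seen in 2 and 8 cells (pooled ratio 25.5, counting interval 5.77 to 232). None of the 19 follicular, type 2 and type 17 helper genes passed the filter and 11 of them were at 0 in both classes.

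Maf, a transcription factor of several helper subsets, had a UMI in 16 of 36 Ccl5-positive cells, 4, 9, 2 and 1 by library, against 2 of 113 Ccl5-low cells and 1.05% of B cells (pooled ratio 34.0, counting interval 10.4 to 175). The chemokine receptor Cx3cr1 was seen in 10 against 0 cells, the inhibitory receptors Tigit in 11 against 2, Lag3 in 7 against 0 and Pdcd1 in 3 against 0. None of the 12 checkpoint genes passed the filter, and pooled CPM was higher in the positive class for 10 of them.

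Genes of antigen recognition and presentation moved upward in part, beside 101 of all 463 tested genes (21.8%) that rose. Among the 384 tested genes outside the ribosomal protein genes, 76.3% had a higher pooled CPM in Ccl5-positive cells. Of 22 T cell receptor signalling genes 8 were tested and 4 rose, the phosphatase Ptprc (1.17), the surface protein Thy1 (0.99), the receptor chain Cd247 (0.96) and the kinase Lck (0.87). Of 14 MHC class I genes 8 were tested and 5 rose, among them H2-K1 (1.05) and H2-Q6 (2.44), a non-classical gene with near-identical neighbours. Of 15 immediate early genes 8 were tested and 4 rose, including Dusp1 (1.59) and Klf6 (1.27). In DESeq2 the counts were 0, 2 and 0 for these groups. H2-Q6 and Dusp1 had 26 and 39 UMIs in the whole Ccl5-low class. Such members passed the filter only through the Ccl5-positive class, in which they were high. The counts of genes that rose are therefore a description and no support for these groups. The interferon response list had 1 tested gene and the heat shock list 5, and none of these passed.

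Translation genes made up most of what fell. Of 79 tested genes for cytosolic ribosomal proteins 65 fell and none rose, with a median log2 difference of -0.74, and they were 65 of the 86 genes that fell. Ribosomal protein messages were a median of 47.8% of UMIs per cell in Ccl5-low and 25.4% in Ccl5-positive cells, which were also the shallower class. With each cell thinned to 1000 UMIs 35 of 77 tested ribosomal genes fell and none rose, with a median of -0.40 beside 0.08 for all genes. The poly(A)-binding protein gene Pabpc1 (-1.19, SE 0.31, edgeR adjusted p = 0.00237), the nucleolar Npm1 (-1.10) and the elongation factors Eef1a1 (-0.72) and Eef1b2 (-0.81) fell as well. Without TMM scaling 51 ribosomal genes fell, in DESeq2 54, without Cured 1, 17, and without Cured 2, 0. Without TMM scaling all called genes divided into 117 higher and 70 lower.

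Within the Ccl5-positive class, cells with and without an NK marker differed in some messages and not in others, a division made after the values were seen and given with no test. The 9 cells with a marker, 4, 1, 3 and 1 by library, had a median of 3462 UMIs. Of these, 8 held Klrb1c (NK1.1), 8 Fcer1g, an Fc receptor adaptor, 5 Ncr1 and 5 the chemokine Xcl1, and 7 held Cd40lg but only 2 Cd4. The 27 cells without a marker had a median of 1973 UMIs. Cd4 was present in 20 of them, Cd40lg in 13, Nkg7 in 25, S100a4 in 20, Maf in 14, Gzmk in 14, Cxcr6 in 12 and the costimulatory receptor Cd28 in 15. In the 9 marked cells Nkg7 was seen in 9 and Cxcr6 in 4, the latter 44.4% of either set. Il7r was seen in 7 of 9 and in 4 of 27 cells. With NK-marked cells of both classes left out, 206 genes passed the test in place of 187, and 156 of the 165 called genes that were still tested passed again.

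**Figure D4:**
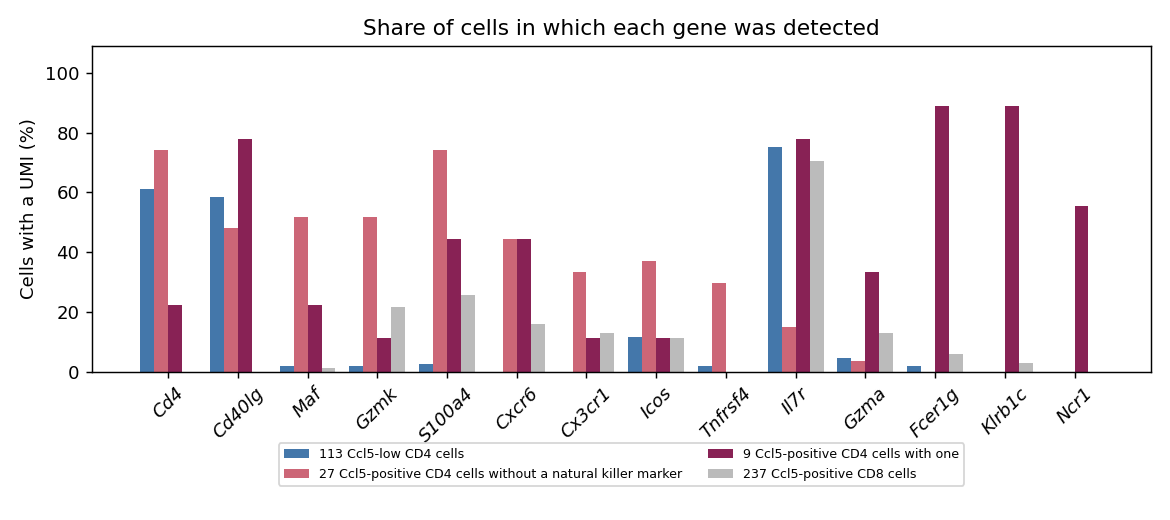
Percent of cells with a UMI of 14 genes in 113 Ccl5-low CD4 T cells, 27 Ccl5-positive cells without an NK marker, 9 with one, and 237 Ccl5-positive CD8 T cells. Maf was seen in 14 of 27 cells without an NK marker and Klrb1c in 8 of 9 cells with one.

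The CD8 T cells of the same libraries, gated alike with Cd8a or Cd8b1 in place of Cd4 and Cd40lg, gave a comparison for what Ccl5 went with in the CD4 cells. They were 854 cells, of which 237 (27.8%) were Ccl5-positive. The difference between the Ccl5 effects of the 2 lineages was tested in one edgeR model over 2744 genes, and 128 (4.66%) passed, 11 with a higher effect in CD4 cells (0.401%) and 117 with a lower one (4.26%). Of these 117, 72 were ribosomal protein genes, out of 84 tested. Without TMM scaling 102 passed, 52 higher and 50 lower, with 37 ribosomal genes among the lower ones. That scaling moved the median of all genes from -0.09 to 0.32, so the directions are relative to the scaling used. In this model the CD4 effect came from Cured 1, Cured 2 and Relapsed 1, and the CD8 effect from these and Relapsed 2. The pooled CPM of CD4 cells given below also include both sums of Relapsed 2, which the model left out.

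Nkg7 differed most clearly between lineages. Pooled over libraries it was at 27.7 CPM in Ccl5-low and 2679 CPM in Ccl5-positive CD4 cells, and at 495 and 1778 CPM in the CD8 classes. The low CD4 cells thus stood apart from the low CD8 cells, 68.4% of which had an Nkg7 UMI (difference of effects 4.21 on the log2 scale, SE 0.36, edgeR adjusted p = 2.15e-21). AW112010, an interferon-responsive transcript, followed the same order, from 219 to 3234 CPM in CD4 and 539 to 1159 CPM in CD8 cells (2.27, adjusted p = 2.6e-06). Id2 went from 64.7 to 724 CPM in CD4 and from 62.5 to 162 CPM in CD8 cells (1.64, SE 0.41, edgeR adjusted p = 0.00399).

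Cxcr6 was at 0 CPM in Ccl5-low and 302 CPM in Ccl5-positive CD4 cells, and at 24.5 and 47.8 CPM in the CD8 classes. Its fitted difference (7.88, SE 1.54, edgeR adjusted p = 0.000149) rests on a class with no UMI and depends on the prior count. With cells holding 2 or more markers of another lineage left out, the adjusted p was 0.0581. Gzmk had the opposite sign, from 18.5 to 314 CPM in CD4 and from 0 to 206 CPM in CD8 cells (-5.33, SE 1.27, edgeR adjusted p = 0.00403), and that sign turned to 0.47 under the same exclusion. Maf, at 9.24 and 314 CPM in CD4 and 1.85 and 3.90 CPM in CD8 cells, did not pass (edgeR adjusted p = 0.226). Ctsw, Srgn and Klrd1 of the cytotoxic list also had higher effects in CD4 cells.

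Some naive and central memory genes had more negative Ccl5 effects in CD4 than in CD8 cells. Of 20 listed genes 19 were tested and 6 had a lower effect in CD4 cells, among them Tcf7, Nsg2, Lef1 and Ccr7. Of all 2744 tested genes 117 (4.26%) had a lower effect, 72 of them ribosomal protein genes. Without TMM scaling 4 listed genes had a lower and 1 a higher effect, beside 50 lower and 52 higher among all tested genes. Tcf7 went from 462 to 48.3 CPM in CD4 and from 349 to 247 CPM in CD8 cells (-3.45, SE 0.57, edgeR adjusted p = 1.93e-06). For Lef1 and Ccr7 the differences were -1.88 and -2.46, with adjusted p of 0.0028 and 0.0262. Without Cured 1 these were 0.0993 and 0.235. In cells, 54.0% of Ccl5-positive CD8 cells still held a Tcf7 UMI, against 8.33% of Ccl5-positive CD4 cells, at medians of 4307 and 2112.5 UMIs per cell.

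**Figure D5:**
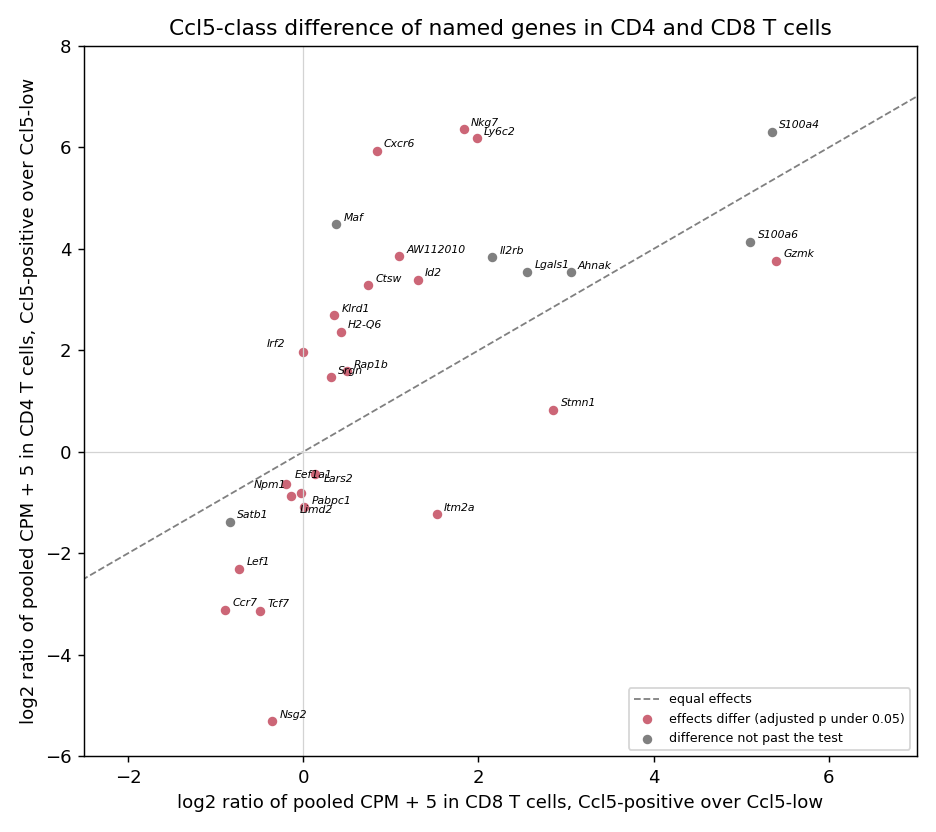
Log2 ratio of pooled CPM plus 5, Ccl5-positive to Ccl5-low, in CD8 T cells (horizontal) and CD4 T cells (vertical) for the genes named in the lineage comparison. Nkg7 lies far above the diagonal, from 27.7 to 2679 CPM in CD4 and 495 to 1778 CPM in CD8 cells, and Tcf7 and Lef1 lie below it.

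The 5′ flanks of genes that moved in opposite directions are shown to let their sequence be set beside their values. They are RefSeq sequences on GRCm38.p6, read 5′ to 3′ on the plus strand, and stop before the first annotated exon base. Nkg7 (chr7:43436888-43437072) and Cxcr6 (chr9:123806227-123806474) were high in Ccl5-positive cells, and Lef1 (chr3:131110073-131110322) was high in Ccl5-low cells. The Lef1 stretch belongs to start 2 of the 4 RefSeq starts of that gene, and the others are not printed. Bases after this start were not found in a GENCODE transcript, and GENCODE places the start of Lef1 at chr3:131110471. Capitals mark matches to TGTGGT (RUNX) or CTTTGA (TCF/LEF) on either strand. GGTGTGA (T-box) and the NF-kB consensus were searched as well.
Nkg7: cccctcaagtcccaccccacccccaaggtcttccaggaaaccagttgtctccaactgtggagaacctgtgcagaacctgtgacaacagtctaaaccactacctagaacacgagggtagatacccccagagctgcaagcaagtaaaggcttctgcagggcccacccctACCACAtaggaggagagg
Cxcr6: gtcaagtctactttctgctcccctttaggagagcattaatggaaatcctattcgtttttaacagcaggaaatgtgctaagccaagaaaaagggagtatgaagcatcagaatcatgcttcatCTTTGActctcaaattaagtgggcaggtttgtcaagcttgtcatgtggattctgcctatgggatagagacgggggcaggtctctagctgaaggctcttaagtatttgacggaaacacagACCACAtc
Lef1: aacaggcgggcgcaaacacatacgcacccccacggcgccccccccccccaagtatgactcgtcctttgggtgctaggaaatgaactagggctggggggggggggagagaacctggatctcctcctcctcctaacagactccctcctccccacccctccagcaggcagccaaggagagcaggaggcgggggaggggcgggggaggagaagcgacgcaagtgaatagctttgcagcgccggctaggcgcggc
In Nkg7 the RUNX letters begin 83 bases before the RefSeq start, and a T-box match begins 13 bases before it, past the stretch printed. Cxcr6 holds RUNX letters 10 bases and TCF/LEF letters 129 bases before its start, and the Lef1 stretch holds none of the 4 motifs. Over 32851 windows of 250 bases before RefSeq starts, 14.0% held the RUNX letters, 13.8% TCF/LEF, 3.33% T-box and 17.6% NF-kB. Matches to RUNX, TCF/LEF and NF-kB letters are thus common and those to T-box letters rarer. No such match is by itself a sign of binding. The promoters of Ccl5 and Ccr7 are named only.

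Whether mice later relapsed was compared over all CD4 T cells first. They were 1.24%, 1.28%, 0.830% and 0.515% of kept cells in Cured 1, Cured 2, Relapsed 1 and Relapsed 2. Both Cured libraries lay above both Relapsed ones (1.26 ± 0.0269 against 0.673 ± 0.223, SD, n = 2 each; exact permutation test, two-sided p = 0.333). This is the smallest p that 2 against 2 libraries allow. With all cells thinned to 1000 UMIs before gating the shares were 0.665%, 0.446%, 0.457% and 0.350%, so that Cured 2 lay below Relapsed 1 and the difference shrank from 0.590 to 0.153 percentage points (exact permutation p = 0.667). The Ccl5-positive share of CD4 cells was 25.5%, 22.6%, 33.3% and 13.6%, with exact 95% intervals from 13.9 to 40.3, 12.3 to 36.2, 16.5 to 54.0 and 2.91 to 34.9. The Relapsed libraries lay on either side of the Cured ones, and the means of 24.1% and 23.5% differed by 0.602 percentage points (exact permutation p = 1). These intervals cover counting error only.

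No gene passed the test between Cured and Relapsed over all gated cells, 0 of 1121 (0.0%) in edgeR with 45 at an unadjusted p under 0.05, and 0 in DESeq2 with 7. Libraries of the groups did not overlap for 347 genes (31.0%). Satb1 had the smallest p of all genes, at 207, 235, 519 and 478 CPM, so that both Relapsed libraries stood above both Cured ones by a wide margin (log2 Cured minus Relapsed -1.23, SE 0.27, edgeR adjusted p = 0.0954). Cct6a, a chaperonin subunit gene that overlaps Psph, was ordered alike at 355, 463, 1023 and 727 CPM (-1.17, adjusted p = 0.0954). Ppp1r18, which encodes a phosphatase-binding protein, was higher in Cured at 407, 366, 84.1 and 177 CPM (1.55, SE 0.36, edgeR adjusted p = 0.0954). Hspa8, a constitutive heat shock chaperone, was at 1481, 1036, 575 and 673 CPM (0.96, adjusted p = 0.233).

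Of the naive list Igfbp4 was also ordered by group, higher in Cured at 837, 670.1, 308 and 514 CPM without overlap (0.84, SE 0.29, edgeR adjusted p = 1.0). Other members of plain interest lay closer together. Lef1 was at 444, 394, 379 and 461 CPM, with the groups overlapping (-0.05), and the differences for Tcf7 (-0.22), Ccr7 (0.32) and Il7r (-0.01) were small beside those between Ccl5 classes. Nkg7 differed by 0.37, and Gzma, at 178, 131, 617 and 17.7 CPM, by -1.21 with an SE of 1.35. Single libraries moved the count, to 2 genes without Relapsed 1 and 12 without Relapsed 2. With NK-marked cells left out 7 genes passed, among them Satb1 (adjusted p = 0.00719), Cct6a (0.00107), Ppp1r18 (0.0298) and Hspa8 (0.0396).

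In the Ccl5-low cells alone 0 of 755 genes (0.0%) passed in edgeR, with 35 at an unadjusted p under 0.05, and 0 passed in DESeq2 with 10. Non-overlapping libraries were seen for 242 genes (32.1%). Satb1 kept its order at 239, 286, 553 and 553 CPM (-1.14, SE 0.29, edgeR adjusted p = 0.269), as did Cct6a at 374, 529, 1239 and 840 CPM (-1.28, adjusted p = 0.257) and Hspa8 at 1408, 1008, 515 and 573 CPM (1.07, adjusted p = 0.269). Without Relapsed 1, 2 genes passed and without Relapsed 2, 20. The library Relapsed 1 also had 7.96% of its Ccl5-low UMIs in Gm42418, a transcript overlapping ribosomal RNA sequence, against 0.983% to 1.89% in the other 3. Of these 4177 Gm42418 UMIs 1493 sat in 1 cell, and 5 of the 18 cells held 200 or more. The Ccl5-positive sum of Relapsed 1 was at 1.08%. The part of this in the outcome values was not tested.

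The last comparison asked whether the Ccl5 effect itself differed by outcome. Of 463 genes 8 (1.73%) passed, 6 with a higher effect in Cured (1.3%) and 2 with a lower one (0.432%), on 1 residual degree of freedom. Il7r differed by -2.20 (edgeR adjusted p = 0.0137), and 4 antigen-experienced genes had higher effects in Cured, S100a6 (7.19), Lgals1 (2.59), S100a11 (2.65) and Vim (2.69). Relapsed entered through Relapsed 1 alone, so these values set 2 Cured libraries beside a single Relapsed one. With NK-marked cells left out 1 of the 8 passed, and Il7r and Lgals1 turned to 0.21 and -2.24. Without the single deep Ccl5-low cell of Relapsed 1 described above 0 of 440 genes passed in edgeR, with 29 at an unadjusted p under 0.05, and with the 3-cell sum of Relapsed 2 kept 0 of 428 passed, with 32.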

How the data were processed

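Peripheral blood leukocytes of 4 pooled libraries were analysed. The deposited values are raw UMI counts per gene and barcode, which the authors made with Cell Ranger 3.1.0 against mm10, per the submitters' processing notes; strand settings and the annotation release were not given in the sources used here, so overlapping genes are uncertain. The counts list 32287 features over 16157 barcodes, the lowest with 500 UMIs. No doublet caller was run. The gate excludes some lineage genes, but 25 Ccl5-low and 7 Ccl5-positive cells still held 2 or more B cell markers, and 8 positive cells 2 or more NK markers. The members, gene lists and tests were chosen with earlier results of these data known.

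Counts were summed per library and class (at least 5 cells) and tested with edgeR 4.0.16 (TMM, filterByExpr, robust quasi-likelihood fit, Benjamini-Hochberg, 0.05), in R 4.3.3. DESeq2 1.42.0 was the alternative tool. CPM (UMIs as a share of all UMIs of a sum, scaled to 1e6) is without TMM. SE is the log2 difference divided by the square root of F. Gate genes and Ccl5 were not tested. Share intervals are exact (Clopper-Pearson, 95%), and the floor is 3 counts. Share intervals and the counting intervals of pooled ratios cover counting error only. Named genes were up to 12 per direction past the test, by smallest p, with a mean of at least 20 CPM and 1 sign in every library (outcome: no overlap), filled to 6 where fewer passed, plus list members; other genes named from lists or as cells with a UMI were chosen after their values were seen. Gene coordinates are from GENCODE on mm10 and flanks from RefSeq on GRCm38.p6. Some measured genes are not reported here. Scripts were tested on simulated data. Same-numbered Cured and Relapsed pools share only a number (correlation of deviations 0.0208).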

Additional observations from a re-analysis of the deposited data

Results flagged for a closer look

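Each result here is a difference between 2 groups in the effect of Ccl5, with the difference itself tested in edgeR, and no explanation was tested.

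Between the 2 Cured libraries and Relapsed 1, the only Relapsed library in the fit, 8 genes had a different Ccl5 effect in CD4 T cells, with 1 residual degree of freedom. With the 3-cell sum of Relapsed 2 kept none of the 8 passed, so they are no result for the groups. Expressed as the log2 effect in Cured minus that in Relapsed, these were S100a6 (7.19), Tpm3 (7.73), Vim (2.69), S100a11 (2.65), Lgals1 (2.59), Rabac1 (-2.71) and Il7r (-2.20), beside the predicted gene Gm42418 (2.40). Tpm3, a tropomyosin, was at 0 CPM in both Relapsed sums of Ccl5-positive cells, so its fitted value depends on the prior count. Vim in those cells was at 1010, 894 and 212 CPM in Cured 1, Cured 2 and Relapsed 1. Without the deep Ccl5-low cell of Relapsed 1 none of the 8 passed.

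Between CD4 and CD8 T cells, 128 genes had a different Ccl5 effect. Higher effects in CD4 cells were seen for Nkg7 (4.21), Ly6c2 (4.58), Cxcr6 (7.88), AW112010 (2.27), Ctsw, a cathepsin of killer cells (2.19), Klrd1, a chain of NK receptors (1.96), Irf2 (1.84), H2-Q6 (1.69), Id2 (1.64), Rap1b, a small GTPase of adhesion (0.98), and Srgn (0.85). Lower effects in CD4 cells were seen for Nsg2 (-7.97), Gzmk (-5.33), Tcf7 (-3.45), Itm2a (-3.43), Stmn1 (-2.80), Ccr7 (-2.46), Lef1 (-1.88), Pabpc1 (-1.56), Npm1 (-1.31), Lars2 (-1.13), Limd2 (-1.08) and Eef1a1 (-0.86). Nsg2 had 0 UMIs in Ccl5-positive CD4 cells, and the fitted differences of Nsg2, Cxcr6 and Gzmk rest on classes with no UMI. Ly6c2 had an adjusted p of 0.0299, which became 0.0505 without TMM scaling and 0.0514 without NK-marked cells.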

How the results depend on the processing

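Between Ccl5 classes, 187 genes passed. The count was 87 in DESeq2 and 89 with cells thinned to 1000 UMIs, and leaving out 1 library gave 4 to 239. With no filter on low counts 192 passed, 104 of the 187 among them, and Sh3bgrl3, Shisa5 and Tmsb4x changed sign, as did Rps3 when thinned and Btg2 and Junb with cells holding 2 or more markers of another lineage left out (100 of 178 still passed). For all CD4 cells by outcome 0 passed, against 4 with no filter, 4 with cells holding 2 or more markers of another lineage left out, 7 without NK-marked cells and 0 to 12 without 1 library. For Ccl5-low cells 0 passed, against 6 with no filter, 2 under the lineage exclusion, 1 with the limit at 1 Ccl5 UMI, 2 without NK-marked cells, 2 without the deep cell and 0 to 20 without 1 library. The 8 genes whose Ccl5 effect differed by outcome became 2 in DESeq2, 1 with no filter, 1 thinned, 1 without NK-marked cells, 0 with the 3-cell sum kept and 0 without the deep cell; in that test Il7r reversed to 0.21 without NK-marked cells, and Lgals1 to -2.24 there and to -1.62 without the deep cell. Between lineages 128 became 80 when thinned. Gzma reversed there from 0.44 to -5.69 under the lineage exclusion and to -4.34 without NK-marked cells, and Gzmk to 0.47 under the exclusion. The difference in CD4 share of kept cells of 0.590 points became 0.153 when thinned. The difference in Ccl5-positive share of 0.602 points became -3.24 when thinned and ran from -9.25 to 10.5 without 1 library, negative without Cured 1 (-0.843) or Relapsed 2 (-9.25). The cause of these moves was not tested. With the replicate number as a block, 0 genes passed in either outcome test, with 38 and 22 at an unadjusted p under 0.05 against 45 and 35 without it, so the block changed no call. The outcome interaction could not be fitted without Cured 1, Cured 2 or Relapsed 1, under the lineage exclusion or with a Cd4 UMI needed. The checks without TMM scaling, without NK-marked cells, with the 3-cell sum and without the deep cell were chosen after seeing the data. Depth limits the sparse genes: 36 Ccl5-positive cells held 82882 UMIs, a floor of 36.2 CPM.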

Other observations

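T cell receptor beta variable segments (Trbv) were spread over both classes. Of 113 Ccl5-low cells 111 held a UMI of at least 1 Trbv segment, with 21 of 35 listed segments seen, and of 36 Ccl5-positive cells 31 did, with 17 segments seen. Trbv13-2 was the most frequent in both, in 19 and 6 cells. These are segment counts, not clonotypes.

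The T cells that passed the Cd3 and exclusion steps numbered 1343, and 327 of them had no UMI of Cd4, Cd40lg, Cd8a or Cd8b1, so their lineage could not be read at this depth. Of these 327 cells 167 (51.1%) held 2 or more Ccl5 UMIs, against 24.2% in the CD4 gate and 27.8% in the CD8 gate, at medians of 2726, 2677 and 3605 UMIs. The 36 Ccl5-positive CD4 cells are thus those with a detected lineage gene. The sequences added to the reference, GFP_1 and BCR_ABL_1, had 0 UMIs in the 149 cells.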
